A study of Mus musculus with 6 samples.

Results

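The 8 genes described here encode ligands of the interleukin-1 (IL-1) family and their soluble antagonists, chosen by gene symbol from the 23282 genes of the deposited table. They are Il1a, Il1b, Il1f6 (IL-36α), Il1f9 (IL-36γ), Il18 and Il33, which encode ligands, and Il1rn and Il18bp, which encode antagonists. Primary hepatocytes from C57BL/6N mice were left untreated (control, 3 samples) or received recombinant IL-1β protein for 24 h (IL-1β, 3 samples), and RNA was read from the 3′ ends of transcripts by QuantSeq. Both groups were seeded after collagenase perfusion of the liver and rested for 3 h before the medium was changed. Although the deposited design text counts 2 samples in each group, it lists 3, and all 3 were used. Nothing in the labels says that the samples of a group came from separate animals, so p-values measure only the spread between these samples. The dose of IL-1β is not given in the labels. Libraries held 9538741 to 11105408 counted reads.

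Members of the IL-1 family act through paired receptor chains that signal by way of MyD88 and NF-κB. IL-1α and IL-1β bind IL1R1, which then recruits IL1RAP, and the antagonist IL-1Ra (Il1rn) occupies IL1R1 without that recruitment. IL-36 cytokines bind IL1RL2, IL-33 binds ST2 (Il1rl1), and IL-18 binds IL18R1 unless it is captured by IL-18-binding protein (Il18bp). IL-1β and IL-18 are made as inactive precursors that caspase-1 cleaves, whereas IL-1α and IL-33 are alarmins that dying cells release. In the liver, Kupffer cells are a known source of IL-1β and IL-18, and hepatocytes are known to secrete IL-1Ra during the acute phase response. Because the cultures received IL-1β as protein, reads on Il1b come from the cells' own gene.

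On the GRCm38 build, 5 of the 8 genes lie on chromosome 2. Il1f9 (24186476 to 24193567), Il1f6 (24215417 to 24225701) and Il1rn (24336860 to 24351491) lie on the plus strand within 165016 bases, in a cluster that also holds Il1f8, Il1f5 and Il1f10. Il1a (129299610 to 129309972) and Il1b (129364580 to 129371120) lie farther along on the minus strand and together span 71511 bases. Il18bp is on chromosome 7 (102015077 to 102018155, minus strand), Il18 on chromosome 9 (50565368 to 50581837, plus strand) and Il33 on chromosome 19 (29925114 to 29960715, plus strand). All 8 positions overlapped the RefSeq gene of the same symbol. Near their 3′ ends (500 nt), where QuantSeq reads start, 1 of 426 windows of 75 nt of Il1f9 also occurred in another gene on the sense strand, and 0 windows of the other 7 genes did.

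RefSeq promoter windows (GRCm38.p6, 250 bases before to 50 bases after a transcript start) were found for 7 of the 8 genes, with 10 start sites in all. For the 3 genes below, which rose after IL-1β, the 250 bases before a start are shown 5′ to 3′ on the plus strand, since each held 1 of the 4 motifs searched, and capitals mark that match. The windows are chr2:24186226-24186475 for Il1f9, chr2:24336610-24336859 for the first start of Il1rn and chr19:29945540-29945789 for the second start of Il33.
Il1f9: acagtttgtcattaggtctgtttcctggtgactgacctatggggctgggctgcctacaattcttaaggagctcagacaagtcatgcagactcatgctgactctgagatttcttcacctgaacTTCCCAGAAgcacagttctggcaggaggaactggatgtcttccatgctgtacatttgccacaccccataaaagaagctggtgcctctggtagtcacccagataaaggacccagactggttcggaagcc
Il1rn: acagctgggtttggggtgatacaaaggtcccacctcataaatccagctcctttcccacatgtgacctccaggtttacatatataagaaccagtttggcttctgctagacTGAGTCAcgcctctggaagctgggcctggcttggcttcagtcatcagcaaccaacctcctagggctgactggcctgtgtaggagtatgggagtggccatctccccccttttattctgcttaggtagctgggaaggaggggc
Il33: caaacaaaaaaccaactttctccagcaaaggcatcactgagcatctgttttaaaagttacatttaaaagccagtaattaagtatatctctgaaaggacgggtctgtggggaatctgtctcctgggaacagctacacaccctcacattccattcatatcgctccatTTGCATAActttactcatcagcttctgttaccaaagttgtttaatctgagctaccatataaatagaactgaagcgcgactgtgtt
The match in Il1f9 is to the STAT motif TTCNNNGAA and begins 128 bases before the start. Il1rn held the AP-1 motif TGANTCA 141 bases before its first start. Il33 held the C/EBP motif TTGCNNAA 85 bases before its second start. On either strand, these motifs occurred in 8.3% (STAT), 7.81% (AP-1) and 10.8% (C/EBP) of all 32851 promoter windows. The windows shown were picked for a match to any of the 4 motifs, and the share of all windows with any of them was not computed. No match lay at the other starts of Il1rn and Il33 or in the windows of Il1b and Il18. Il1f6, which also rose, had no promoter window. An AP-1 match also lay 12 bases before the start of Il1a, which had too few reads to be tested, and a C/EBP match 49 bases before that of Il18bp, which was not called. The κB motif, which 8.46% of all windows held, had no match in the 10 windows.

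Levels below are CPM, the counts of a library scaled to a common total after TMM normalization, with means over the n = 3 samples of a group ± SD, and 3 counts in a library, taken as the lower limit of detection, correspond to 0.269 to 0.321 CPM. This limit covers counting error only. QuantSeq gives about 1 read per transcript whatever its length, so levels are compared between genes on this scale without division by length. Groups were compared with edgeR's quasi-likelihood test over the 11657 genes with enough reads, and adjusted p-values were Benjamini-Hochberg values over all of them. Log2FC stands for the log2 of the level after IL-1β over the level in control samples. Of the 8 members, 6 passed the filter on low counts. After IL-1β, Il1f9, Il1f6, Il33 and Il1rn were higher at an adjusted p below 0.05, against 6.97% of all genes tested that were higher and 13.4% called in either direction. With total-count scaling the share of higher genes among all calls was 39.6%, against 52.0% with TMM, and the same 4 members were called. Il18 and Il18bp were not called, 0 members were lower (0 also at an unadjusted p below 0.05 and by DESeq2) against 6.44% of all genes tested, and Il1a and Il1b had too few reads to be tested. Il1f6 passed the filter only through the IL-1β samples, so the number called among those tested is a description and not a test of the family.

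**Figure D1:**
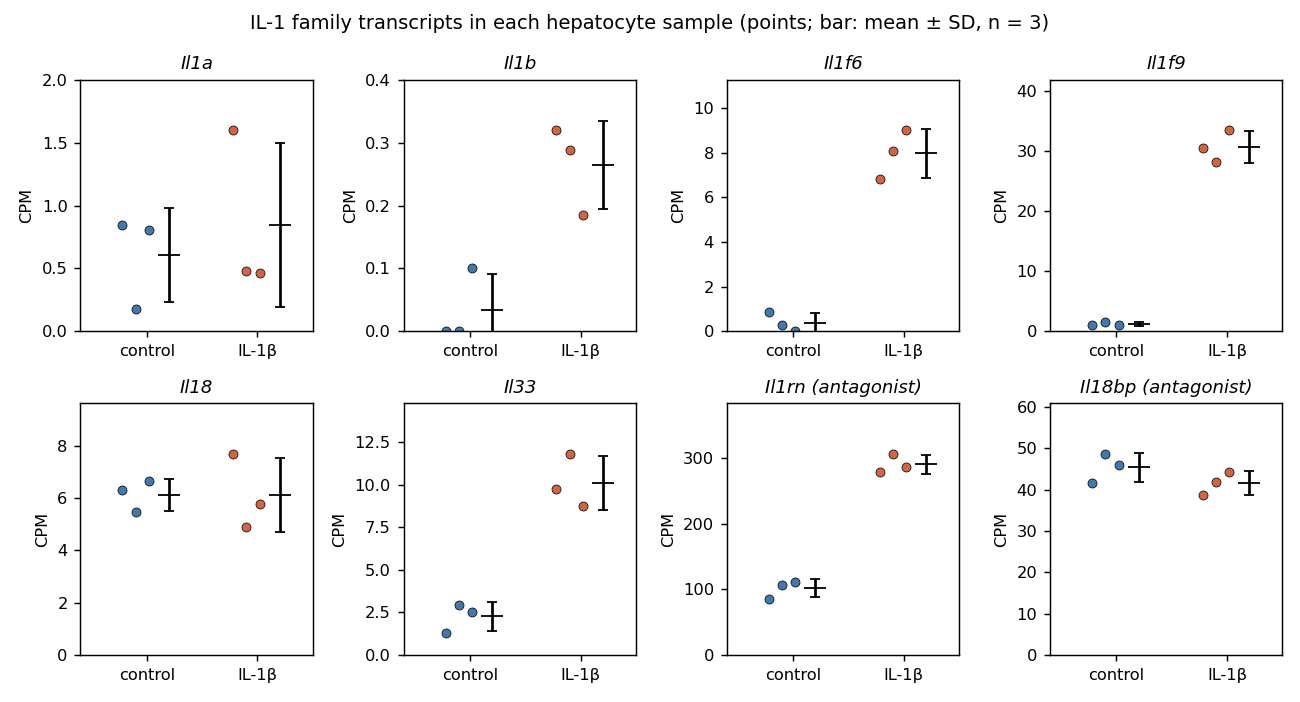
Level of each of the 8 IL-1 family genes (CPM, linear axes that start at 0 and differ between panels) in 3 control and 3 IL-1β samples, with points for samples and bars for the mean ± SD. The groups stand apart for Il1f6, Il1f9, Il33 and Il1rn, overlap for Il1a, Il18 and Il18bp, and stand apart at no more than 3 reads per sample for Il1b.

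Il1f9 encodes IL-36γ, an agonist of IL1RL2 known from epithelia. Reads on Il1f9 numbered 11, 18 and 11 in the control samples and 286, 294 and 361 in the IL-1β samples, so the groups were far apart. From 1.25 ± 0.314 CPM in untreated cells, Il1f9 reached 30.8 ± 2.66 CPM, a 24.2-fold difference. The log2FC was 4.60 (standard error 0.21, adjusted p = 1.4e-14 from edgeR), the 14th highest of the 11657 genes tested. In bulk RNA, more cells that express a gene and more RNA per cell cannot be told apart.

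Il1f6, the neighbor of Il1f9 on chromosome 2, encodes IL-36α, which binds the same receptor. Its reads numbered 9, 3 and 0 in control samples and 64, 84 and 97 in IL-1β samples. The mean rose from 0.371 ± 0.432 CPM to 7.98 ± 1.09 CPM. The log2FC was 4.36 (standard error 0.48, adjusted p = 2.0e-07 from edgeR), the 18th highest of all genes tested. Since the control samples were near the limit of detection, the size is imprecise, with a 95% interval of 10.3-fold to 40.9-fold, and it was 5.70 on the log2 scale without control replicate 1. With 1 CPM added to every value before the logarithm, the log2FC was 2.75 for Il1f6 and 3.83 for Il1f9. IL-1β samples held 4.47, 3.50 and 3.72 reads on Il1f9 for each read on Il1f6, so Il1f9 remained the more abundant transcript.

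Other IL-1 family ligands of the chromosome 2 cluster were not detected. Il1f5, which encodes the antagonist of IL1RL2, Il1f8 (IL-36β) and Il1f10 (IL-38) had 0 reads in each of the 6 samples, which allows up to 3 reads in a library. The rise of Il1f9 and Il1f6 was therefore measured beside no detectable transcript of the 3 other ligands of the cluster. Il1rl2, the receptor of IL-36, had 4 reads in IL-1β replicate 1 and 0 in the other 5 samples.

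Il33 encodes IL-33, a nuclear alarmin. It was read 14, 33 and 25 times in control samples and 91, 123 and 94 times in IL-1β samples. The lowest IL-1β sample (8.74 CPM) lay above the highest control sample (2.95 CPM), and the mean rose from 2.26 ± 0.849 CPM to 10.1 ± 1.57 CPM. The log2FC was 2.15 (standard error 0.29, adjusted p = 4.5e-06 from edgeR), or 4.44-fold with a 95% interval of 2.94-fold to 6.70-fold. Il1rl1, which encodes the IL-33 receptor ST2, had 1 read in the 6 samples together.

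Il1rn was the most abundant member in every sample. Control samples held 912, 1200 and 1109 reads on Il1rn, and IL-1β samples held 2616, 3197 and 3080. The lowest IL-1β sample (279.7 CPM) was well above the highest control sample (111.7 CPM), and the mean rose from 101.6 ± 13.97 CPM to 291.0 ± 14.32 CPM. The log2FC was 1.52 (standard error 0.084) with an adjusted p of 5.4e-13 from edgeR, or 2.86-fold with a 95% interval of 2.54-fold to 3.23-fold. By mean level over the 6 samples, Il1rn was 782nd of the 11657 genes tested. RefSeq places 3 transcript starts in Il1rn, which is known to give secreted and intracellular forms of the protein, and 1 count per gene at the 3′ end does not separate them.

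Taken one gene at a time, the samples of both groups did not overlap for Il1f6, Il1f9, Il1rn and Il33, whose exact permutation p was 0.1 (two-sided), the smallest that 3 samples against 3 allow. Groups without overlap, in either direction, were found for 28.2% of all genes tested.

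Il18 and Il18bp showed no change that passed the test. Il18, the ligand, had 67, 61 and 66 reads in control samples and 72, 51 and 62 in IL-1β samples, with overlapping groups. Its mean was 6.14 ± 0.611 CPM in control samples and 6.12 ± 1.43 CPM after IL-1β. The log2FC was -0.0066 (adjusted p = 0.993 from edgeR), and its 95% interval ran from -0.53 to 0.51, or from 0.695-fold to 1.43-fold. When 1 of the 6 samples was left out, its log2FC lay between -0.19 and 0.13, on both sides of 0. Il18bp, the antagonist, had 443, 544 and 456 reads in control samples and 362, 435 and 477 in IL-1β samples, again with overlap. Its means were 45.4 ± 3.57 CPM and 41.6 ± 2.83 CPM. The log2FC of Il18bp was -0.13 (adjusted p = 0.522 from edgeR), with a 95% interval from -0.34 to 0.086. Reads on Il18bp outnumbered those on Il18 in every sample, by 7.48 ± 1.25 to 1 in control samples and 7.08 ± 1.83 to 1 after IL-1β.

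**Figure D2:**
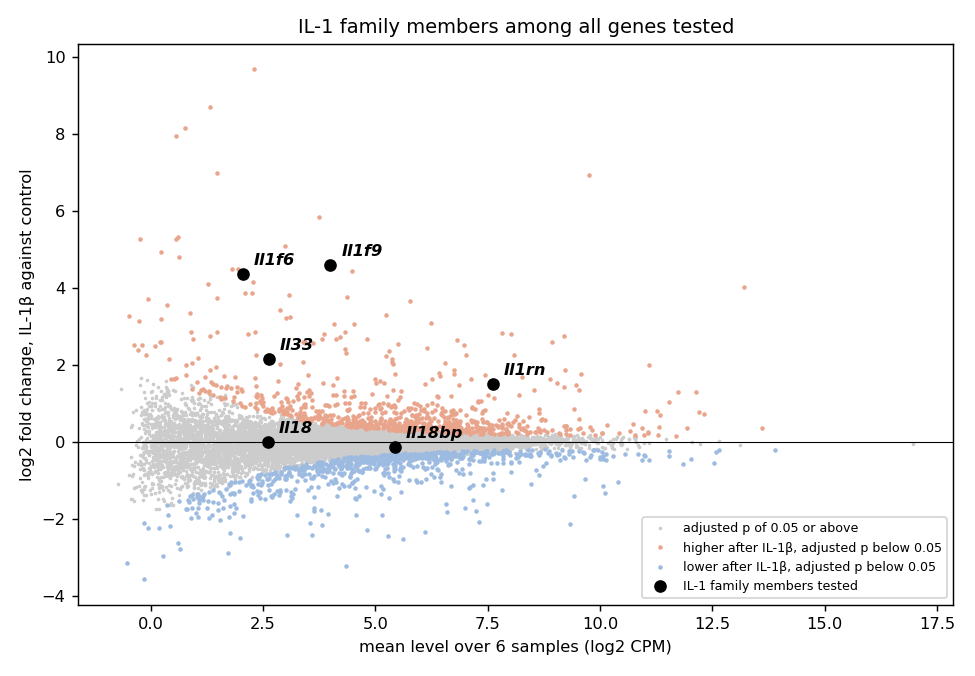
Log2 fold change of IL-1β against control over the mean level of each gene (log2 CPM) for all 11657 genes tested, with the 6 tested IL-1 family members in black. Il1f9 (4.60) and Il1f6 (4.36) lie among the largest increases, Il33 (2.15) and Il1rn (1.52) rank 82nd and 128th by log2 fold change, and Il18 and Il18bp lie near 0.

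Il1a and Il1b, the agonists of IL1R1, were at or near the limit of detection in both groups. Il1a had 9, 2 and 8 reads in control samples and 15, 5 and 5 in IL-1β samples, with overlap (exact permutation test on CPM, two-sided p = 0.8). Summed over samples, the ratio of IL-1β to control was 1.32 per read sequenced, with a 95% Clopper-Pearson interval from 0.698 to 2.53 that covers counting error only. Il1b had 0, 0 and 1 reads in control samples and 3, 3 and 2 in IL-1β samples. Each IL-1β sample exceeded each control sample (exact permutation p = 0.1, two-sided), but no sample had over 3 reads, so no single fold change is given. The 95% Clopper-Pearson interval of the summed ratio for Il1b, per read sequenced, ran from 1.08 to 356 and covers counting error only. Without the filter on low counts, edgeR gave adjusted p-values of 0.817 for Il1a and 0.461 for Il1b. An annotated transcript on the other strand, Gm14023, overlaps Il1a and had 0, 9 and 9 reads in control samples and 16, 14 and 5 in IL-1β samples. Il1bos, which overlaps Il1b in the same way, had 0 reads. Whether the counting used strand is not given in the sources used here, so reads on Il1a and Gm14023 cannot be told apart with certainty.

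In order of mean level, control samples ran from Il1rn (101.6 CPM) and Il18bp (45.4 CPM) through Il18 (6.14 CPM), Il33 (2.26 CPM) and Il1f9 (1.25 CPM) to Il1a (0.610 CPM), Il1f6 (0.371 CPM) and Il1b (0.0336 CPM). Samples of Il33 overlapped those of Il1f9, and samples of Il1f6 overlapped those of Il1a and of Il1b, while the other neighbors in this order did not overlap. After IL-1β, the order became Il1rn (291.0 CPM), Il18bp (41.6 CPM), Il1f9 (30.8 CPM), Il33 (10.1 CPM), Il1f6 (7.98 CPM), Il18 (6.12 CPM), Il1a (0.850 CPM) and Il1b (0.265 CPM). Here Il1f6 overlapped its neighbors Il33 and Il18, and the other neighbors did not overlap. Il1rn took 64.3 ± 1.96% of the reads on the 8 genes in control samples and 74.8 ± 1.30% after IL-1β. The share of Il18bp was 28.9 ± 1.54% in control samples and 10.7 ± 0.619% after IL-1β, while its own level showed no called change. The share of Il1f9 was 0.791 ± 0.159% and 7.93 ± 0.835%. For each read on Il1a or Il1b, there were 101.3, 600.0 and 123.2 reads on Il1rn in control samples and 145.3, 399.6 and 440.0 in IL-1β samples, ratios that rest on 2 to 18 agonist reads per sample.

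Of 8 receptors of the IL-1 family, only Il1r1, Il1rap and Sigirr had enough reads to be tested. Il1r1, the signaling receptor of IL-1α and IL-1β and the target of IL-1Ra, was read 352, 447 and 363 times in control samples and 1517, 1584 and 1526 times in IL-1β samples. Its log2FC was 2.06 (standard error 0.090, adjusted p = 6.3e-15 from edgeR), from 36.6 ± 3.47 to 152.1 ± 10.16 CPM. Sigirr, an inhibitory receptor of the family, had 28, 31 and 25 reads in control samples and 2, 4 and 7 after IL-1β, a log2FC of -2.61 (standard error 0.53, adjusted p = 0.0010), and passed the filter on low counts only through the control samples. Since its reads after IL-1β were near the limit of detection, the size is imprecise, at -1.37 with limma on log2(CPM + 1) and -3.07 without IL-1β replicate 3. Il1rap, the shared accessory chain, had a log2FC of 0.98 (adjusted p = 0.112). Its adjusted p was 0.0313 without the filter on low counts, 0.0470 with limma on log2(CPM + 1) and 0.0478 with a block on replicate number. Without control replicate 3 its log2FC was 1.55 (adjusted p = 0.0163), and without control replicate 1 it was 0.57 (adjusted p = 0.342). The decoy receptor Il1r2 had at most 2 reads in a sample, and Il18r1 had 0 reads in each sample. Il18rap, the other IL-18 receptor chain, had at most 5 reads in a sample.

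Of 11 genes of proximal signaling, all tested, 3 were higher and 0 lower after IL-1β (4 and 0 at an unadjusted p below 0.05, 3 and 0 by DESeq2), beside 6.97% higher and 6.44% lower among all genes tested, with a median log2FC of 0.10 against -0.0018 for all genes tested. Irak3, an inhibitory kinase-like protein that restrains IL-1 receptor signaling, rose from 13.2 ± 4.75 to 61.9 ± 3.12 CPM, a log2FC of 2.24 (adjusted p = 8.7e-11 from edgeR). Changes of the adaptor-binding protein Tollip (0.36, adjusted p = 0.0189) and the kinase Irak2 (0.28, adjusted p = 0.0219) were small. Tollip lost its call without control replicate 3 (adjusted p = 0.0724), IL-1β replicate 2 (0.127) or IL-1β replicate 3 (0.0677). Irak2 lost its call without control replicate 1 (adjusted p = 0.067), control replicate 2 (0.0519), IL-1β replicate 1 (0.0932) or IL-1β replicate 3 (0.0903), and with total-count scaling (0.0786). Myd88, the adaptor of the signaling receptors of the family, had a log2FC of 0.20 (adjusted p = 0.167).

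Among 10 genes of the inflammasome and cytokine release, 6 were tested, and 2 were higher and 0 lower (3 and 0 at an unadjusted p below 0.05, 2 and 0 by DESeq2), beside the same 6.97% and 6.44% of all genes tested, with a median log2FC of 0.64. Casp4, the mouse caspase-11 that senses intracellular endotoxin and cleaves gasdermin D, rose from 3.09 ± 0.941 to 18.6 ± 1.30 CPM, a log2FC of 2.59 (adjusted p = 1.7e-09 from edgeR). Gsdmd, the pore protein itself, had a log2FC of 0.50 (adjusted p = 0.0012). Casp1, which encodes the protease that matures IL-1β and IL-18, had 7, 23 and 12 reads in control samples and 15, 14 and 15 in IL-1β samples (log2FC 0.13, adjusted p = 0.922). Pycard, the inflammasome adaptor, had a log2FC of 1.29 (adjusted p = 0.109), and of 1.67 (adjusted p = 0.0378) without IL-1β replicate 3. Aim2, a sensor of cytosolic DNA, had a log2FC of 0.79 (adjusted p = 0.393). The sensor Nlrp3 had 0 to 6 reads per sample and was not tested.

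Further proteases that act on these ligands, and their inhibitors, are given by gene. Capn2, a subunit of calpain, which processes IL-1α, had a log2FC of -0.27 (adjusted p = 0.0071 from edgeR), and -0.24 (adjusted p = 0.0545) without IL-1β replicate 2. Capn1, a subunit of the other ubiquitous calpain, had a log2FC of 0.23 (adjusted p = 0.447), with an adjusted p of 0.0168 without control replicate 1. Serpinb9, an inhibitor of granzyme B, was not called (log2FC -0.39, adjusted p = 0.10). The neutrophil proteases Elane and Ctsg, which can activate IL-36 and IL-33, had 0 reads. Prtn3, which encodes the neutrophil protease proteinase 3, had 1, 3 and 1 reads in control samples and 6, 9 and 5 in IL-1β samples, so the groups did not overlap, but it had too few reads to be tested.

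The list of NF-κB feedback also holds Nfkb1, Nfkb2 and Relb, which encode NF-κB subunits. Of its 8 genes, all tested, 6 were higher and 0 lower (8 and 0 at an unadjusted p below 0.05, 5 and 0 by DESeq2), beside 6.97% and 6.44% of all genes tested, with a median log2FC of 0.97. Among the subunit genes, only Nfkb1 was called (log2FC 0.55, adjusted p = 0.0288 from edgeR), with overlapping groups. Tnfaip3, which encodes the deubiquitinase A20, rose from 4.82 ± 1.01 to 35.1 ± 3.19 CPM, a log2FC of 2.87 (adjusted p = 1.2e-12 from edgeR). Nfkbia, the inhibitor IκBα, had a log2FC of 1.54 (adjusted p = 3.2e-15), nearly the value of Il1rn. Tnip1 (1.20), whose product binds A20, and Nfkbiz (0.95), which encodes the nuclear protein IκBζ, rose as well.

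**Figure D3:**
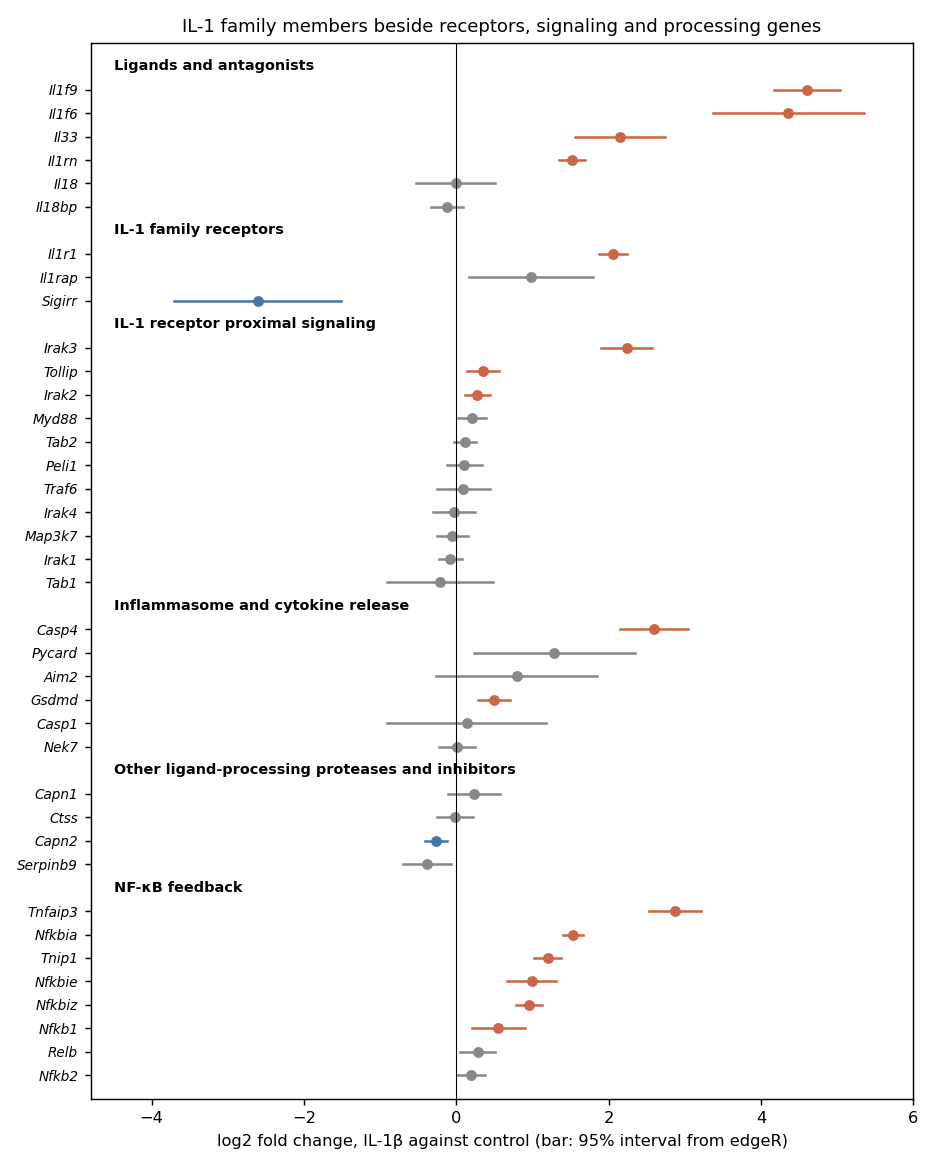
Log2 fold change of IL-1β against control with its 95% interval from edgeR for the 6 tested IL-1 family members and for tested genes of receptors, proximal signaling, the inflammasome, other ligand-processing proteases and NF-κB feedback. Orange marks genes higher and blue genes lower at an adjusted p below 0.05, gray the others, and Il1f9 (4.60) and Il1f6 (4.36) lie to the right of every other gene shown.

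Hepatocyte markers were abundant in all samples, led by Alb at 16200 ± 516 CPM in control samples and 14104 ± 577 CPM after IL-1β. All 12 markers listed had reads in both groups, although Cps1 (2.65 CPM in control samples) and Pck1 (0.694 CPM) were low. Of the 11 tested, 10 were lower and 0 higher after IL-1β (9 and 0 by DESeq2, 10 and 0 at an unadjusted p below 0.05), beside 6.44% lower and 6.97% higher among all genes tested, and the summed level was 31590 ± 365 CPM in control and 25980 ± 908 CPM in IL-1β samples, without overlap. Alb itself had a log2FC of -0.20 (adjusted p = 0.0113 from edgeR) and lost its call with limma on log2(CPM + 1) (0.0882) or log2(CPM + 0.1) (0.0569), and without control replicate 2 (0.0744) or IL-1β replicate 1 (0.0894). Apoe and Gc were lower with a log2FC of -0.26 and -0.58 (adjusted p = 0.0029 and 2.3e-08). Apoa1 had a log2FC of -0.33 (adjusted p = 0.0412) that was -0.094 without control replicate 1 (adjusted p = 0.395), and it lost its call with DESeq2 (0.465), with limma on log2(CPM + 1) (0.0604) or log2(CPM + 0.1) (0.0717), and without any 1 of the IL-1β samples (0.0674, 0.252 and 0.146 without replicates 1, 2 and 3). The part of this difference in the levels of the IL-1 family genes was not tested. Of 14 Kupffer cell and macrophage markers, 11 were tested and 0 were called in either direction (3 higher and 0 lower at an unadjusted p below 0.05, 0 by DESeq2), with a median log2FC of 0.31. Their summed level was 248.1, 279.9 and 276.1 CPM in control samples and 257.6, 254.2 and 287.4 CPM in IL-1β samples, so the groups overlapped. Cd68, the most abundant, supplied 70.4% of that sum and had a log2FC of -0.063 (adjusted p = 0.700), while Ctss, Cd5l and Cd74 had -0.017, -0.21 and 0.56, none of them called, although Cd74 had an adjusted p of 0.0411 by edgeR's exact test and of 0.0235 without control replicate 1. The Kupffer cell markers Clec4f, Timd4 and Vsig4 had too few reads to be tested, and Timd4 had 2 reads in all. Marco, a scavenger receptor of macrophages, was tested and not called (log2FC 0.67, adjusted p = 0.141).

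Summed endothelial markers were 76.9 ± 4.37 CPM in control samples and 75.2 ± 2.31 CPM after IL-1β, and stellate cell markers were 42.0 ± 3.20 and 41.5 ± 2.13 CPM. Of 7 endothelial markers tested, Lyve1 was higher (log2FC 0.45) and Kdr and Clec4g lower (log2FC -1.49 and -2.87), beside 6.97% higher and 6.44% lower among all genes tested (1 higher and 3 lower at an unadjusted p below 0.05, 1 and 2 by DESeq2). Clec4g had 72, 48 and 63 reads in control samples and 3, 7 and 14 in IL-1β samples, so it passed the filter on low counts through the control samples and its size is imprecise. Lyve1 lost its call without control replicate 1 (adjusted p = 0.0965), control replicate 3 (0.0807), IL-1β replicate 2 (0.137) or IL-1β replicate 3 (0.0851) and with total-count scaling (0.0507). Eng, the most abundant, Cdh5 and Pecam1 were not called (log2FC 0.016, 0.32 and -0.31). Col1a1, a stellate cell marker with 0 to 36 reads per sample, was not tested. Of 3 stellate cell markers tested, Ecm1, Dcn and Col3a1, 0 were called (0 higher and 1 lower at an unadjusted p below 0.05, 0 by DESeq2). Cholangiocyte markers were 323.9 ± 7.17 and 237.5 ± 1.84 CPM, with Spp1 lower (log2FC -1.20), Sox9 not called (log2FC 0.21, adjusted p = 0.0519) and Krt7, Epcam and Cftr at 0 to 2 reads per sample. Krt19 had 6, 3 and 2 reads in control samples and 0 in each IL-1β sample, too few to be tested. Sox9 passed the threshold with DESeq2 (adjusted p = 0.0414), at least 10 counts in every sample (0.0447), limma on log2(CPM + 1) (0.0480), a block on replicate number (0.0401) and without control replicate 1 (0.0473). Of 9 neutrophil markers, 8 were in the table, and their levels were at or near 0, with S100a9, Mpo, Elane, Ngp and Retnlg at 0 and Csf3r and Camp at 0 to 2 reads in every sample, apart from S100a8, which had 0 reads in each control sample and 19, 36 and 51 in IL-1β samples. For T and NK cells, Cd3e, Cd3g, Gzma, Klrb1c and Ncr1 were at 0 in every sample, Cd3d and Nkg7 had 1 read each in all, and nearly all of the summed level came from the chemokine gene Ccl5, with 55.5 ± 7.23 CPM in control samples and 398 ± 25.2 CPM after IL-1β. The part that other cells had in the levels of Il1f9, Il1f6, Il33 and Il1rn was not tested.

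**Figure D4:**
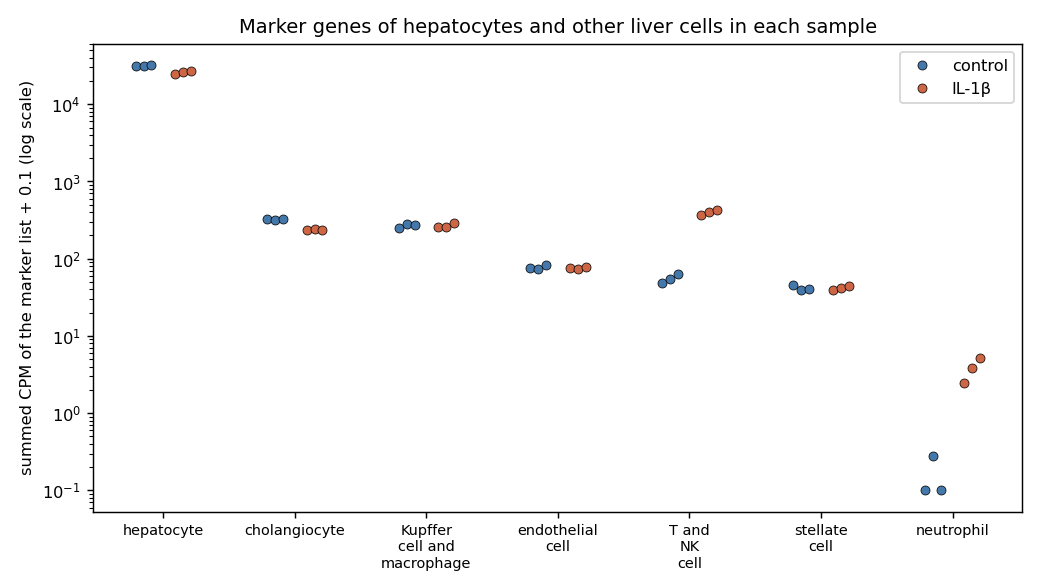
Summed level of 7 marker lists in each sample (CPM plus 0.1, log axis), with 3 points per group. Kupffer cell, endothelial and stellate cell sums overlap between control and IL-1β samples, and hepatocyte and cholangiocyte sums are lower after IL-1β. The lower cholangiocyte sum comes from Spp1 (mean 189.8 CPM in control and 82.7 CPM in IL-1β samples), while Sox9 had 133.7 and 154.6 CPM. The rises of the neutrophil and T and NK cell lists come mostly from S100a8 and Ccl5.

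Among 7979 other tested genes with a mean of at least 10 CPM, those whose log2(CPM + 1) ran most like that of Il1rn over the 6 samples were Pdzrn3 (Pearson r = 0.999), Cpb2 (0.999) and Vnn3 (0.999). For Il18bp they were Ptk2b (0.994), Ppp2r5c (0.989) and Srsf11 (0.987). These values describe 6 points that share libraries and, for Il1rn, mostly the difference between the groups, as 80 genes had an r above 0.99 with Il1rn and 1 gene had with Il18bp. Pdzrn3 rose with a log2FC of 2.52 (adjusted p = 5.6e-14 from edgeR), Cpb2, which encodes an inhibitor of fibrinolysis made by the liver, with 0.86 (adjusted p = 5.4e-10), and Vnn3 with 2.77 (adjusted p = 3.0e-16). As these genes were picked for their likeness to Il1rn, which differed between the groups, their p-values are not separate evidence.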

How the data were processed

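The authors deposited 1 table with raw read counts per gene for the 6 samples, log2 values of TMM-normalized CPM plus 1, group means, and their own comparison as linear fold changes with p-values. Everything but the counts was left unused. Reads were aligned by the authors with Bowtie2 to mm10 (GRCm38), and the counting tool is not given in the sources used here. Raw counts (9538741 to 11105408 per library) were taken into edgeR 4.0.16 under R 4.3.3 (filterByExpr, TMM, quasi-likelihood test, Benjamini-Hochberg over 11657 genes). Standard errors of log2 fold changes were obtained by dividing their absolute value by the root of F. On simulated data with 200 genes changed 2-fold, the test recovered 85.8% of those tested, and 5.06% of its calls were unchanged genes. Exact permutation tests used scipy 1.17.1. Alternatives were DESeq2 1.42.0, other scalings and filters, edgeR's exact test, limma 3.58.1 on log2 CPM plus 1 or 0.1, the replicate number as a block and leaving out each sample. Besides the 8 members, the genes named are up to 4 with the smallest adjusted p per pathway list, the 4 most abundant per marker list, and the 3 genes most like the 2 most abundant members. Kdr, Clec4g, Casp1, Marco, Nfkb1, Nfkb2, Relb and genes named only by their read counts were picked after their values were seen. Members and lists were chosen with earlier results of these data known. Of the protease list, 2 genes are not reported here, so no counts over that list are given.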

Additional observations from a re-analysis of the deposited data

How the results depend on the processing

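Il1f9, Il1f6, Il33 and Il1rn stayed higher and past the threshold wherever an alternative tested them, with adjusted p-values of at most 1.2e-10, 3.9e-05, 2.2e-04 and 1.7e-09. With each sample left out, their log2 fold changes were 4.48 to 4.84 for Il1f9, 3.83 to 5.70 for Il1f6, 1.87 to 2.40 for Il33 and 1.41 to 1.59 for Il1rn. With at least 10 counts in every sample, Il1f6 was not tested and 3 members were called, by construction of that filter. Il18 changed direction only among fits that left out a sample (-0.19 to 0.13), and Il18bp stayed between -0.19 and -0.068. The difference in mean CPM was -0.14 to 0.43 for Il1a and 0.20 to 0.27 for Il1b when a sample was left out. The 1563 genes called in all became 1488 to 1728 with other tools, scalings and filters and 1131 to 1596 with each sample left out. Total-count scaling gave 1670 genes, of which 39.6% were higher, against 52.0% with TMM, and upper-quartile scaling 45.3%. Deviations of same-numbered control and IL-1β samples correlated by 0.075, 0.027 and -0.0050, and those of different-numbered samples by -0.11 to 0.099. The labels do not say whether same-numbered samples share more than a number. With the replicate number as a block, 1671 genes were called and the members' calls were the same, with log2 fold changes of 4.60 for Il1f9, 4.38 for Il1f6, 2.17 for Il33 and 1.52 for Il1rn. The 43 other named genes followed through the alternatives did not include Kdr, Clec4g, Casp1, Marco, Nfkb1, Nfkb2 or Relb. Of the 43, Eng turned from 0.016 to -0.013 with upper-quartile and -0.039 with total-count scaling and lay between -0.048 and 0.12 with a sample left out. Ctss lay between -0.077 and 0.022. With all samples, 7 further values became weaker and 8 stronger, and with a sample left out 18 became weaker and 5 stronger. The causes were not tested. Genes near 3 reads per library, such as Il1b, are limited by depth.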
